A study of Mus musculus with 8 samples.

Results

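The antioxidant and glutathione genes described here are 42 genes listed by name: the oxidant sensor Keap1 and the transcription factor gene Nfe2l2, quinone and haem enzymes, glutathione synthesis, peroxidases, the thioredoxin system, superoxide dismutases, catalase and glutathione transferases. Their probe sets were found by gene symbol in the deposited table, and 39 of the 42 were measured among 19505 named genes, each by 1 probe set. Ggt1, Prdx5 and Prdx6 were not analysed here. The series compares luminal epithelial cells, the milk-secreting layer of the mammary gland, from mice on day 15 of pregnancy. One group of 4 arrays is labelled Ctrl and the other group of 4 is labelled a3a6KO, named after integrins alpha 3 and alpha 6, and both groups were digested, sorted and amplified by the same protocol from 500 pg of total RNA. Which Cre line drove the deletion, what the control mice carried and whether animals were pooled is not given in the sources used here, and the titles of the a3a6KO samples also hold the word Ctrl.

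Nrf2, the product of Nfe2l2, is made continuously and destroyed continuously. Keap1 presents it to a Cul3 and Rbx1 ubiquitin ligase, and oxidants that modify Keap1 let Nrf2 accumulate, pair with small Maf proteins and bind the antioxidant response element of genes such as Nqo1, Hmox1, Gclc, Gclm, Txnrd1, Srxn1 and Prdx1. Glutathione, the main small thiol of the cell, is built by the Gclc and Gclm ligase and by Gss, is oxidised by the glutathione peroxidases, is restored by Gsr, and is coupled to reactive compounds by the transferases. Mammary epithelial cells kept away from their matrix in culture are known to accumulate reactive oxygen species, and the secretory cell loads its endoplasmic reticulum with proteins that must be oxidised to fold. How these genes stand in luminal cells labelled as lacking 2 laminin-binding integrin chains is the question the comparison addresses here.

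Values are log2 expression, and differences are a3a6KO minus control. The 95th percentile of the 5222 negative control (intron) probe sets of the same array, which lay between 6.38 and 6.90, is called background below. Levels of different genes come from different probes and are not ranked against each other. Of the targeted genes, Itga6 had means of 8.88 ± 0.18 (control) and 6.42 ± 2.09 (a3a6KO; SD, n = 4 each). Its controls ran from 8.73 to 9.14, and all a3a6KO values lay below them, a3a6KO 3 (8.21) and a3a6KO 4 (7.85) by the least. Itga3 had means of 6.42 ± 0.80 and 5.15 ± 0.58, and its groups overlapped. Neither targeted gene passed the adjusted test used below (differences -2.46 and -1.265, limma adjusted p = 0.944 for each). As a check of the labelled cell type, 10 of 10 luminal markers exceeded background on all arrays, with mean levels of 10.1 to 10.2 in control and 10.0 to 10.2 in a3a6KO. Of 11 basal and myoepithelial markers, 2 exceeded it on all arrays, and their mean level ran from 6.16 to 7.88 in control and from 5.44 to 7.25 in a3a6KO. Means of all 11 were lower in a3a6KO, beside 50.1% of all genes, with a median difference of -0.623. Of the 11, 4 had an unadjusted limma p under 0.05 (beside 5.13% of all genes). The groups did not overlap in 1 (beside 2.94% of all genes), and 0 passed the adjusted test. Few other markers exceeded background on all arrays: endothelial 0 of 8, fibroblast 0 of 7, leukocyte 1 of 7, erythroid 0 of 2 and adipocyte 1 of 5. Of the 8 endothelial markers, 4 exceeded background on some arrays. Their median deviation from their gene means was highest in control 4 (1.42) and a3a6KO 3 (0.875). The part of these cells in the results below was not tested.

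The antioxidant genes showed no difference between a3a6KO and control that passed the test. The limma fit over all genes called 0 of the 39 at an adjusted p under 0.05, where 0.0% of all genes were called, and the adjusted p-values of the 39 ran from 0.944 to 0.998. At an unadjusted p under 0.05 there were 2 of 39, Prdx4 (higher) and Mgst2 (lower), a share of 5.13% beside 5.13% of all genes. By direction that was 1 of 39 higher (2.56%, beside 2.4% of all genes) and 1 of 39 lower (2.56%, beside 2.73%). A difference of at least 1 log2 unit was seen in 2 of 39, Gsta4 and Mgst2 (5.13%, beside 1.52% of all genes). The groups did not overlap in 0 of the 39, beside 2.94% of all genes. Means were lower in a3a6KO in 25 of 39, or 64.1%, beside 50.1% of all genes, and the median difference of the 39 was -0.145 beside -0.0025 over all genes. That median was -0.01 without control 2 and control 3, and -0.02 over the members that exceeded background on every array. With a score of basal keratins as a covariate, the median turned to 0.0805 and 17 of 39 were lower. In bulk samples, fewer cells of a type and less RNA per cell cannot be told apart.

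How firmly each gene was measured differed widely. There were 12 members above background on all 8 arrays: Hmox1, Gpx1, Gpx4, Prdx1, Prdx2, Prdx4, Txn1, Txnrd1, Txnip, Sod1, Cat and Mgst1. That is 30.8% of the members, and the same held for 8.25% of all genes. Another 17 members (43.6%, beside 76.4% of all genes) exceeded background on no array, and 10 did so on some arrays. For the 12, the 95% interval of the difference reached 0.333 to 0.772 to either side. In all 12 it stayed within 1 log2 unit, a 2-fold change, either way, beside 85.6% of the 1609 genes above background on all 8 arrays. For the other 27 it reached 0.309 to 2.36 to either side (median 0.728), and it stayed within 1 log2 unit in 6 of them. Over all 39 members it did so in 18 (46.2%), beside 74.5% of all genes.

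**Figure D1:**
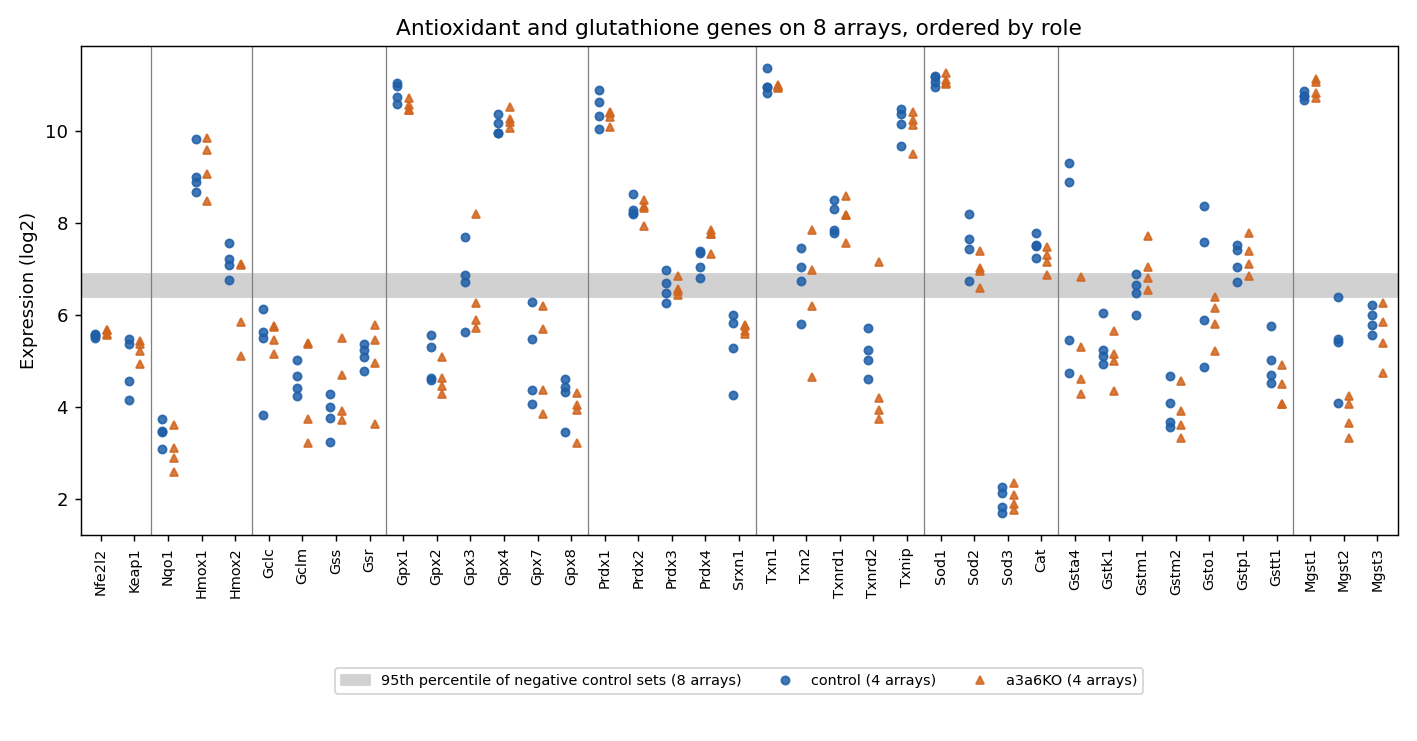
Log2 expression of the 39 measured genes, grouped by role between the vertical lines, with 4 control arrays (circles) and 4 a3a6KO arrays (triangles) per gene and a grey band for the background level of the 8 arrays. Circles and triangles overlap in every gene, tightly in Sod1 and Txn1 and over several log2 units in Gsta4, Gsto1 and Txnrd2.

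The sensor and its transcription factor were both below background on every array. Nfe2l2 was at 5.56, 5.54, 5.59 and 5.50 in control 1 to 4 and at 5.56, 5.68, 5.68 and 5.58 in a3a6KO 1 to 4. Its whole range was 0.18, and only 0.195% of all genes had a range as small or smaller. The difference was 0.0775 (SE 0.137, limma adjusted p = 0.977). Since Nrf2 is controlled mainly through the stability of the protein, its transcript level is no measure of its activity. Keap1 was at 5.38, 5.47, 4.57 and 4.16 in control and at 5.44, 5.36, 5.21 and 4.94 in a3a6KO. Controls 3 and 4 lay below all a3a6KO values and controls 1 and 2 at their upper end, for a difference of 0.34 (SE 0.302). With single arrays left out the difference ran from 0.0975 (without control 4) to 0.534 (without control 2).

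Among the enzymes that Nrf2 is known to induce, Nqo1, a quinone reductase often used as its readout, was at 3.73, 3.49, 3.46 and 3.08 in control and at 3.60, 2.58, 3.12 and 2.90 in a3a6KO. All values were below background, and 2 of the 8 were not even above the median of the negative control sets (2.85 to 3.07 per array). The difference was -0.39 (SE 0.244, limma adjusted p = 0.946). Hmox1, the inducible haem oxygenase, was well above background on every array. It stood at 9.0, 8.66, 8.89 and 9.82 in control and at 9.58, 9.07, 9.84 and 8.48 in a3a6KO. Each group held high and low arrays, and the difference was 0.15 (SE 0.343, 95% interval -0.62 to 0.92), or -0.0492 without a3a6KO 3. Genes induced by tissue dissociation were above background in 11 of 11 members, with mean levels of 8.75 to 9.37 in control and 8.55 to 9.26 in a3a6KO. Hmox1 was highest in control 4 and a3a6KO 3. On these arrays the dissociation genes had their lowest median deviations from their gene means (-0.301 and -0.561). Endothelial markers (1.42 and 0.875), basal markers (1.46 and 0.509) and fibroblast markers (0.178 and 0.518) had their highest there. Luminal, leukocyte, erythroid and adipocyte markers did not. The part of any of these in the Hmox1 level was not tested. Hmox2, the constitutive haem oxygenase, was at 6.76, 7.09, 7.57 and 7.22 in control and at 5.85, 5.11, 7.08 and 7.10 in a3a6KO. Its a3a6KO arrays 1 and 2 were low and the others sat within the control range, giving -0.88 (SE 0.436, limma adjusted p = 0.944). The Hmox2 difference was -0.48 without a3a6KO 2, -1.15 without a3a6KO 4 and -0.183 with the basal keratin covariate.

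The antioxidant response element has the core TGACNNNGC, and AP-1 factors bind the related TGANTCA. Both were searched on both strands in the 250 bases before each annotated start (RefSeq, GRCm38.p6), and 34 of the 39 measured genes had such a window. Hmox1, Gclc, Gsr, Sod3 and Gsta4 had none and were not searched, nor were bases further upstream in any gene. The first core was found in 6 of the 34 (17.6%), against 11.5% of all genes with a window: Nfe2l2, Gclm, Prdx1, Mgst1, Txnrd1 and Sod1. The second was found in 4 of the 34 (11.8%), against 7.82%: Srxn1, Prdx1, Mgst2 and Gstp1. In Prdx1 1 match of each overlaps. The stretch around 1 match is shown for 8 of these members, with the match in capitals, so that the element can be read beside the level of the gene. Not shown are the match in Txnrd1 (bases 92 to 84 before 1 of its 3 annotated starts) and a further match to the second core in Srxn1 (bases 102 to 96) and in Prdx1 (bases 237 to 231). A match describes the letters only. In Prdx1 (chr4:116685440-116685500, plus strand) it covers bases 133 to 125 before the start. In Gclm (chr3:122245397-122245457, plus) it covers bases 134 to 126, in Nfe2l2 (chr2:75704869-75704913, minus) bases 240 to 232. In Sod1 (chr16:90220680-90220740, plus) and in Mgst1 (chr6:138140445-138140505, plus, upstream of the first of 2 annotated starts) it covers bases 56 to 48. The second core lies at bases 45 to 39 in Srxn1 (chr2:152105453-152105511, plus), 52 to 46 in Mgst2 (chr3:51661101-51661159, plus) and 74 to 68 in Gstp1 (chr19:4037954-4038012, minus).
Prdx1: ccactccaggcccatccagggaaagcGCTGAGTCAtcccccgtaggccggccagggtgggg
Gclm: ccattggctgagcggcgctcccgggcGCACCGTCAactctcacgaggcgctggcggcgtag
Nfe2l2: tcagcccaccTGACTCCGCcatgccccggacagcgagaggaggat
Sod1: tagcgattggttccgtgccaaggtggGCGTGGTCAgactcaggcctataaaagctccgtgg
Mgst1: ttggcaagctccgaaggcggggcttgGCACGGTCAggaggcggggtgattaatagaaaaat
Srxn1: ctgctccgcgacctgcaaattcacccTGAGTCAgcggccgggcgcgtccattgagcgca
Mgst2: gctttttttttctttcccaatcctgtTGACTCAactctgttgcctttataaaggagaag
Gstp1: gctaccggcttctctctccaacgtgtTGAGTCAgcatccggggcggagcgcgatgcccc

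Of the 6 genes with the first core, Prdx1, Mgst1, Txnrd1 and Sod1 exceeded background on every array, and their differences were -0.17, 0.17, 0.0175 and 0.0125. Gclm and Nfe2l2 exceeded it on none, with differences of -0.17 and 0.0775. None of the 6 passed the test.

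Genes of glutathione synthesis and recycling were below background on every array in all 4 measured members. Gclc, the catalytic ligase subunit, was at 3.82, 5.49, 5.62 and 6.12 in control and at 5.73, 5.46, 5.77 and 5.15 in a3a6KO. Control 1 alone was low, and without it the difference of 0.27 (SE 0.439) became -0.22. The modifier subunit gene Gclm differed by -0.17, with a3a6KO arrays at 3.22 to 5.39 on both sides of the control range of 4.25 to 5.03. Gss, which completes glutathione, was at 4.29, 3.77, 3.24 and 4.00 in control and at 3.91, 5.50, 4.69 and 3.71 in a3a6KO. Only a3a6KO 2 and 3 stood above the controls (difference 0.63, SE 0.397), and the difference was 0.28 without a3a6KO 2 and 0.133 with the basal keratin covariate. Gsr, which reduces the oxidised form, differed by -0.17, and by 0.28 without a3a6KO 1.

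Glutathione peroxidases use glutathione to remove hydrogen peroxide (Gpx1, Gpx2, Gpx3) or lipid peroxides within membranes (Gpx4). Gpx1 was at 10.73, 11.03, 10.98 and 10.59 in control and at 10.71, 10.45, 10.56 and 10.45 in a3a6KO. The a3a6KO arrays 2, 3 and 4 lay below every control, and a3a6KO 1 lay above control 4. The difference was -0.29 (SE 0.166, limma adjusted p = 0.946), with an exact permutation p of 0.0571 (two-sided, 70 assignments, of which the smallest possible p is 0.0286). Its 95% interval ran from -0.66 to 0.08, that is from 0.63 to 1.06 times control. Gpx4, by contrast, had its mean slightly higher in a3a6KO, at 10.26 ± 0.19 against 10.11 ± 0.20 (SD, n = 4; difference 0.15, 95% interval -0.24 to 0.54). Whether the 2 peroxidases differed from each other in their response was not tested. The secreted peroxidase gene Gpx3 was uneven, from 5.64 to 7.69 in control and from 5.72 to 8.19 in a3a6KO. Gpx2, Gpx7 and Gpx8 exceeded background on no array and differed by -0.41, -0.0175 and -0.33.

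Peroxiredoxins reduce peroxides through a reactive cysteine and draw on thioredoxin. Prdx4, the member that works in the endoplasmic reticulum, was at 7.04, 6.81, 7.34 and 7.39 in control and at 7.32, 7.76, 7.75 and 7.85 in a3a6KO. Arrays 2, 3 and 4 of a3a6KO lay above every control, and a3a6KO 1 lay within the control range. The mean was 0.53 higher (SE 0.198, 95% interval 0.08 to 0.97), or 1.44-fold, with an unadjusted limma p of 0.0255 and an adjusted p of 0.944. The exact permutation p was 0.0857. With single arrays left out the difference ran from 0.41 to 0.64. The cytosolic Prdx1 was at 10.04, 10.32, 10.62 and 10.88 in control and at 10.41, 10.31, 10.38 and 10.09 in a3a6KO, where all a3a6KO values fell inside the control range (difference -0.17, SE 0.207). Prdx2, also cytosolic, and the mitochondrial Prdx3 differed by -0.0525 and -0.0125. Srxn1, the sulfiredoxin that repairs overoxidised peroxiredoxins, was below background throughout, at 4.26 in control 1 and 5.29 to 5.99 on the other 7 arrays.

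The thioredoxin system passes electrons from NADPH to peroxiredoxins and other thiol proteins. Txn1, the cytosolic thioredoxin, was at 10.83, 11.36, 10.96 and 10.95 in control and at 10.94, 10.97, 10.93 and 11.00 in a3a6KO. The 4 a3a6KO values spanned 0.07 and lay inside the control range, and the difference was -0.065 (SE 0.164, 95% interval -0.43 to 0.30). Its reductase gene Txnrd1 differed by 0.0175 (SE 0.259), from 7.77 to 8.50 in control and from 7.56 to 8.58 in a3a6KO. Txnip, an inhibitor of thioredoxin whose gene responds to glucose, ranged from 9.67 to 10.47 and from 9.50 to 10.41 (difference -0.0975, SE 0.252). The mitochondrial partners were measured less well. Txnrd2 was at 5.03, 5.23, 5.71 and 4.62 in control and at 3.93, 7.16, 3.74 and 4.19 in a3a6KO. Array a3a6KO 2 alone exceeded background, and the other 3 lay below every control, so the difference was -0.39 (SE 0.687) with that array and -1.19 without it. Leaving out one of the low arrays instead brought it to -0.0542 (without a3a6KO 3), -0.117 (without a3a6KO 1) or -0.204 (without a3a6KO 4). Txn2 differed by -0.34 (SE 0.627), and by 0.25 without a3a6KO 1.

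Sod1, the cytosolic superoxide dismutase, was the steadiest of the enzymes. It was at 11.06, 11.16, 10.95 and 11.20 in control and at 11.10, 11.02, 11.26 and 11.04 in a3a6KO, a range of 0.31 over all arrays that 1.28% of genes matched or undercut. The difference was 0.0125 (SE 0.148), and its 95% interval of -0.32 to 0.35 corresponds to 0.80 to 1.27 times control. Sod2, the mitochondrial enzyme, varied more, at 7.43, 7.66, 6.74 and 8.20 in control and at 6.59, 7.39, 7.03 and 6.96 in a3a6KO. Control 3 fell among the a3a6KO values (difference -0.52, SE 0.307), and without control 3 the difference was -0.77. Without control 4, the highest array, it was -0.284. Catalase, the peroxisomal enzyme encoded by Cat, averaged 7.51 ± 0.22 on the control arrays and 7.20 ± 0.26 on the a3a6KO arrays (SD, n = 4). The difference was -0.31 (SE 0.192). Sod3, the extracellular enzyme, was at 1.71 to 2.36 on all arrays, under even the median of the negative control sets.

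**Figure D2:**
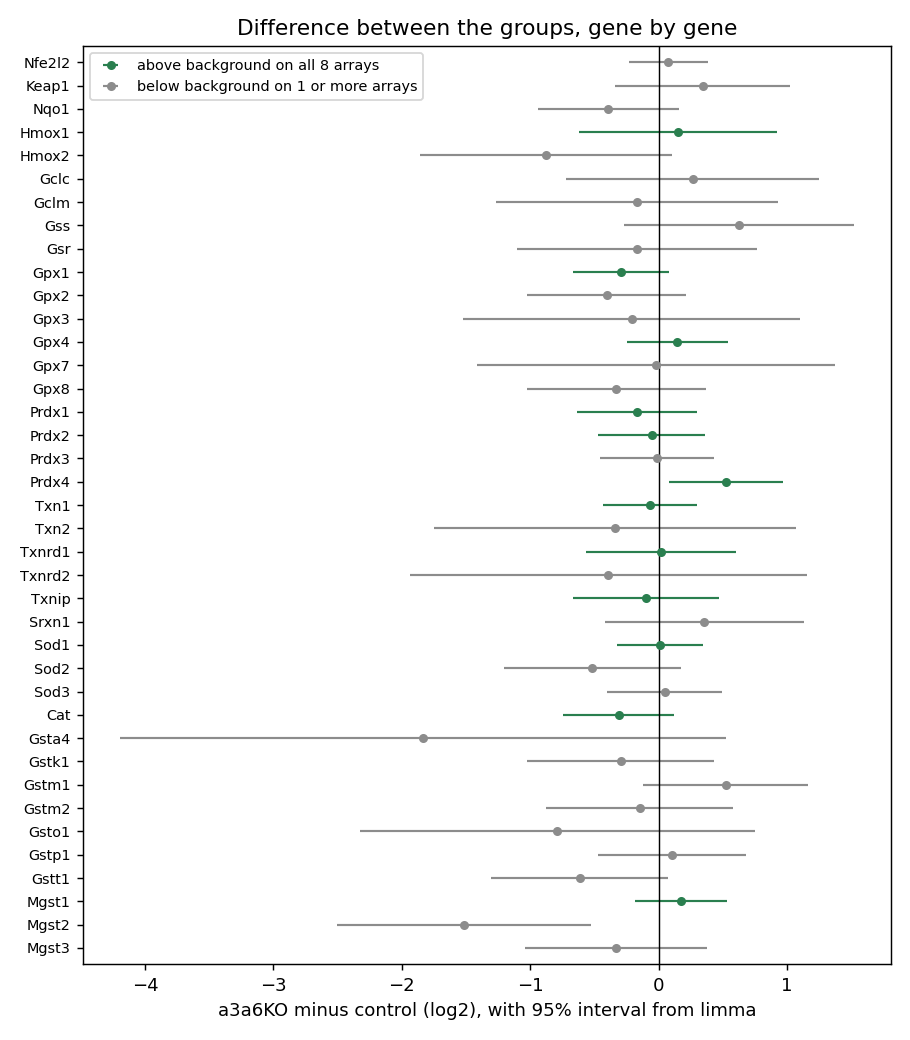
Difference a3a6KO minus control (log2) for the 39 measured genes, as points with 95% intervals from the limma fit, in green for the 12 genes above background on every array and in grey for the others. Among the green intervals only that of Prdx4 (0.08 to 0.97) leaves out 0, and among the grey ones only that of Mgst2 (-2.50 to -0.53) does.

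Among the soluble glutathione transferases, Gsta4 and Gsto1 had the widest ranges over the arrays, 5.0 and 3.5 log2 units, beside 1.06 to 1.71 for the other 5. Gsta4, which couples glutathione to the lipid peroxidation product hydroxynonenal, was at 5.45, 9.29, 8.88 and 4.74 in control and at 5.30, 4.60, 4.29 and 6.83 in a3a6KO. The range of Gsta4 was equalled or undercut by 99.9% of genes, and the high values belonged to controls 2 and 3. Gsto1, an omega-class transferase, was likewise high in those arrays alone, at 8.37 in control 2 and 7.58 in control 3 against 4.87 to 6.40 on the other 6. The same 2 controls were highest for Krt16 (9.95 and 8.51, against 4.46 to 5.75 elsewhere) and for Sprr1a (7.22 and 7.47, against 2.92 to 4.53), keratinocyte genes induced in stressed squamous epithelium. These 4 genes were picked after their values were seen, and the part of such cells in the transferase values was not tested. The differences of Gsta4 (-1.83, SE 1.05) and Gsto1 (-0.79, SE 0.684) turned to 0.16 and 0.51 without controls 2 and 3.

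**Figure D3:**
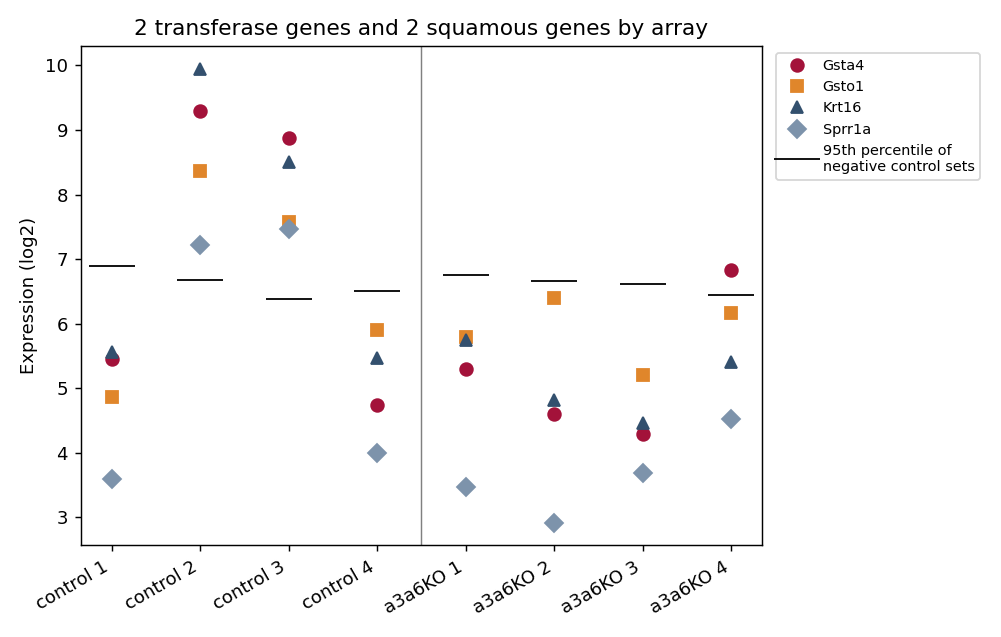
Log2 expression of Gsta4 and Gsto1 and of the squamous genes Krt16 and Sprr1a on each of the 8 arrays, with the background level of each array as a black dash. All 4 genes exceed background in control 2 and control 3, and on the other arrays only Gsta4 does so, in a3a6KO 4 (6.83).

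The remaining soluble transferases varied less from array to array. Gstp1, the pi-class enzyme, was at 6.72, 7.52, 7.42 and 7.04 in control and at 6.84, 7.78, 7.39 and 7.11 in a3a6KO. The groups overlapped almost fully (difference 0.11, SE 0.257). Gstt1, a theta-class enzyme below background, was at 5.02, 4.53, 5.77 and 4.69 in control and at 4.51, 4.91, 4.07 and 4.06 in a3a6KO. Only a3a6KO 2 reached into the control range (difference -0.62, SE 0.306, adjusted p = 0.944). Gstm1 had its mean 0.52 higher in a3a6KO (SE 0.284), with 7.71 in a3a6KO 1 and 6.0 in control 1 as its extremes. Gstk1 and Gstm2 were below background on every array and differed by -0.29 and -0.145.

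The microsomal transferases, membrane enzymes that also act on lipid hydroperoxides, split into a well measured and a poorly measured gene. Mgst1 was at 10.75, 10.67, 10.87 and 10.76 in control and at 11.13, 11.07, 10.72 and 10.82 in a3a6KO. Arrays 1 and 2 of a3a6KO stood above every control, and the mean difference was 0.17 (SE 0.159, 95% interval -0.19 to 0.53). Mgst2 was at 5.41, 5.47, 4.08 and 6.40 in control and at 3.65, 4.25, 3.33 and 4.07 in a3a6KO. Controls 1, 2 and 4 lay above every a3a6KO array, while control 3 lay just below a3a6KO 2. It had the smallest p of the 39 genes (difference -1.51, SE 0.439, unadjusted limma p = 0.00694, adjusted p = 0.944, exact permutation p = 0.0571). With single arrays left out the difference ran from -1.94 to -1.16. Every Mgst2 value was below background, so its size is uncertain and no fold is given. Mgst3 differed by -0.33 (SE 0.314), also below background. Over the 18 genes whose arrays were listed by rule, exact permutation p-values ran from 0.0571 to 0.914.

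The wider redox system was read from 8 further lists with 126 measured genes between them. In limma, 0 of the 126 passed at an adjusted p under 0.05, 9 had an unadjusted p under 0.05 (7.14%, beside 5.13% of all genes), the groups did not overlap in 6 (4.76%, beside 2.94%), and 83 had lower means in a3a6KO (65.9%, beside 50.1%). Background was not exceeded on any array by 76 of the 126. Rbx1, the ring subunit of the ligase that marks Nrf2 for destruction, was at 8.16, 8.50, 9.09 and 8.56 in control and at 7.86, 7.88, 7.93 and 8.03 in a3a6KO. All a3a6KO values lay below all controls and within 0.17 of each other (difference -0.65, SE 0.207, adjusted p = 0.944). Among 13 Nrf2 partners and regulators, 4 were higher and 9 lower, with Nfe2l1 at -0.29 and the repressor gene Bach1 at -0.21.

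Of 24 further Nrf2 targets, 6 were higher and 18 lower (median difference -0.0912), and 0 passed. The haem transporter gene Slc48a1 differed by -1.09 (SE 0.381), with a3a6KO 4 (7.48) inside the control range of 7.24 to 7.81. Ugdh, which makes UDP-glucuronate, differed by 0.71 (SE 0.275, adjusted p = 0.944 in limma) with no overlap, and was the 1 of the 6 non-overlapping genes with the higher values in a3a6KO. Ephx1, the microsomal epoxide hydrolase gene, differed by -0.68. Both were below background. The metallothionein genes Mt1 and Mt2, whose products bind zinc and copper, differed by 0.065 (SE 0.16) and -0.045 (SE 0.179) and exceeded background on every array. Mt4 differed by -1.23 and exceeded it on 1 array.

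Selenium enters several of these enzymes as selenocysteine, among them Gpx1, Gpx2, Gpx3, Gpx4, Txnrd1 and Txnrd2, of which 4 had lower and 2 higher means in a3a6KO. In the list of selenoprotein synthesis factors, carriers and other selenoproteins, 14 of 16 genes (87.5%) had lower means, beside 50.1% of all genes, with a median difference of -0.188. With single arrays left out the count ran from 10 (without control 4) to 15, and it was 9 without control 4 and a3a6KO 3 together. Selenok, a selenoprotein of the endoplasmic reticulum membrane, was at 8.07, 7.53, 7.54 and 7.88 in control and at 7.34, 7.20, 7.30 and 7.16 in a3a6KO, with no overlap (difference -0.51, SE 0.175, adjusted p = 0.944). Selenoh differed by -0.35 with no overlap either, and the selenium carrier gene Selenop by -0.27. No member of the list passed the test.

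**Figure D4:**
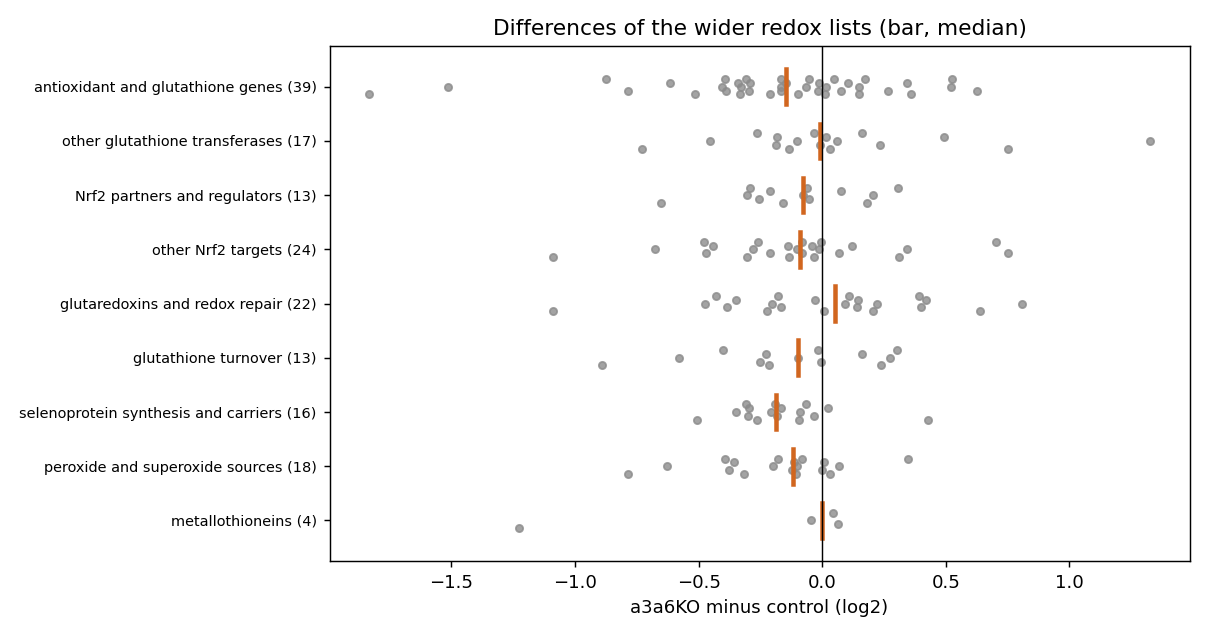
Difference a3a6KO minus control (log2) of each measured gene (grey points) in the antioxidant and glutathione genes and in the 8 wider lists, with the number of genes in brackets and the median as an orange bar. The medians run from -0.188 in the selenoprotein list to 0.05 in the glutaredoxin and redox repair list, each small beside the spread of its points.

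Other lists gave 0 calls as well. Among 17 transferases outside the 42 genes, 8 were higher and 9 lower, with Gstm4 at 1.33 (SE 0.581), Gstz1 at 0.75 and Gsta3 at -0.46, and 13 of the 17 exceeded background on no array. Among 22 glutaredoxins and redox repair genes, 12 were higher and 10 lower. There, the methionine sulfoxide reductase gene Msrb1 differed by -1.09 with no overlap. Only control 2 (7.68) exceeded background for Msrb1, with the other controls at 5.59 to 5.92 and a3a6KO at 4.87 to 5.38. Txndc12, a thioredoxin-like gene of the endoplasmic reticulum, differed by 0.81, and Park7 by -0.39 with no overlap. Glutathione turnover genes were higher in 4 and lower in 9 of 13, with Ggct at -0.89, Cth at -0.23 and the aminopeptidase gene Anpep at 0.24. Of 18 measured sources of hydrogen peroxide and superoxide, 5 were higher and 13 lower, with Lao1, an L-amino acid oxidase secreted in milk, at -0.79 (SE 0.328), and the NADPH oxidase genes Nox4 at -0.63 and Ncf1 at -0.38, both below background.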

How the data were processed

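Luminal mammary cells from 4 control and 4 a3a6KO samples were profiled on Affymetrix arrays. The deposited log2 values were made by the authors with Affymetrix Expression Console and RMA, per the submitters' processing notes, versions not stated; RMA equalises the arrays by quantiles, which would hide a change common to most genes. Values were used as deposited, from 0.96 to 13.28. Of 28846 probe sets, 19572 had 1 gene symbol, 0 several and 9274 none in GEO's platform annotation; 55 genes had several sets, of which the brightest was kept. All 19572 symbols matched RefSeq. The number of arrays limits the precision, and p-values set the difference between groups against the spread between these samples. Whether a sample is a single animal or a pool is not given in the sources used here.

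Groups were compared with limma 3.58.1 in R 4.3.3 (lmFit, eBayes, two-sided, Benjamini-Hochberg over 19505 genes, threshold 0.05), checked on simulated data. Exact permutation tests used the 70 assignments of samples to groups. The main fit did not pair the samples by title number.

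The members and lists were chosen with earlier results of these data known. Genes given array by array were Nfe2l2, Keap1, Nqo1, Hmox1 and, per role, those of smallest p and of highest mean. Gsta4 and others were added after their values were seen. Up to 3 genes of smallest p were named per wider list. Alternatives were a replicate block, a filter on dim genes, mean of probe sets, median scaling, array weights, another variance prior, left-out arrays and a basal keratin covariate.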

Additional observations from a re-analysis of the deposited data

Results flagged for a closer look

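Among 78 groups of 4 values (39 genes in 2 groups), 2 held an array set far apart from the other 3 by Dixon's criterion, where chance flags about 1 in 20 groups. Prdx2 was at 8.63 in control 2, against 8.20 to 8.27 in the other controls. Txnrd2 was at 7.16 in a3a6KO 2, against 3.74 to 4.19 in the other a3a6KO arrays, and was above background on that array alone.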

How the results depend on the processing

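No member passed the threshold under any of the 17 alternatives (smallest adjusted p 0.757), and 17 of the 39 genes kept their direction under all of them. Over all genes, limma called 1 gene when a basal keratin score was a covariate and 0 under the others. The titles share replicate numbers. Deviations of same-numbered arrays from their group means had correlations of -0.0606 to 0.0395 over genes. Arrays with different numbers were not compared, so these values cannot show whether the samples were paired. With a replicate block 0 of 39 members passed, with the median unaltered at -0.145. The median difference was 0.0805 with the covariate, -0.01 without controls 2 and 3 and -0.0525 with dim genes left out, which leaves 17 members. The groups did not overlap in 4 members without controls 2 and 3, in 1 without control 4 and a3a6KO 3, and in 0 to 3 with single arrays left out. Fewer arrays make separation easier. The share of all genes is not given here for these settings, so the counts show no excess among the members. Members above background on all arrays were 14 with the highest antigenomic set as the level and 37 with the negative control median, both chosen after seeing the data, as was the count of lower selenoprotein genes, which was 5 of 6 with dim genes left out and 10 to 15 of 16 with single arrays left out.

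Differences that changed sign were all under 1 in size in the altered fit. With the covariate they were Hmox1 -0.0637, Gpx3 0.338, Gpx7 0.529, Prdx2 0.143, Txn1 0.104, Txn2 0.0991, Gsta4 0.095, Gstk1 0.162, Gsto1 0.451 and Mgst3 0.135. Without controls 2 and 3 they were Hmox1 -0.168, Gpx3 0.338, Gpx4 -0.01, Gpx7 0.26, Prdx2 0.0425, Prdx3 0.11, Txn1 0.07, Txnrd1 -0.0125, Sod1 -0.025, Gsta4 0.16, Gstk1 0.0175 and Gsto1 0.507. Without control 4 and a3a6KO 3 they were Gclm 0.173, Txnrd1 -0.00333 and Sod1 -0.00333. Median scaling gave Gpx7 0.01 and Prdx3 0.015, and array weights gave Gpx7 0.0335 and Prdx3 0.0113. With single arrays left out, the ranges of genes that changed sign were -0.0492 to 0.404 for Hmox1, -0.216 to 0.551 for Gclc, -0.489 to 0.234 for Gclm, -0.442 to 0.275 for Gsr, -0.767 to 0.111 for Gpx3, -0.407 to 0.393 for Gpx7, -0.123 to 0.0633 for Prdx2, -0.123 to 0.113 for Prdx3, -0.13 to 0.0467 for Txn1, -0.817 to 0.247 for Txn2, -0.135 to 0.205 for Txnrd1, -0.263 to 0.0917 for Txnip, -0.00333 to 0.573 for Srxn1, -0.0392 to 0.0483 for Sod1, -0.0625 to 0.14 for Sod3, -0.38 to 0.0817 for Gstm2 and -0.0617 to 0.252 for Gstp1. The causes were not tested.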
